A study of Mus musculus with 5 samples.

Results

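The genes described here encode the chains of the collagens and laminins, which build the extracellular matrix, and the chains of the integrins, the receptors through which cells hold on to that matrix. Members were the rows of the 5 expression tables whose gene name was a collagen chain (Col followed by a type and a chain number), a laminin chain (Lama, Lamb or Lamc) or an integrin chain (Itga or Itgb), with the integrin-binding protein genes Itgb1bp and Itgb3bp left out. This gave 83 genes of 46078, namely 44 collagen, 11 laminin and 28 integrin genes, all annotated as protein coding. The choice rested on names and used no measured value.

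Laminins are trimers of an alpha, a beta and a gamma chain that assemble at the cell surface, and together with the network-forming type IV collagen they make up the basement membrane. Integrins are dimers of an alpha and a beta chain, in which the alpha chain largely sets the ligand: some pairs bind laminins, some bind collagens, and others bind the RGD tripeptide of fibronectin, vitronectin and related proteins. In the subventricular zone (SVZ), the stem cell niche along the lateral ventricles, stem cells lie in contact with laminin-rich basement membrane and are known for carrying the laminin receptor made of the alpha 6 and beta 1 chains.

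The 5 libraries came from SVZ neural precursor cells of adult female C57BL/6 mice (genotype given as no mutation, 5 to 8 weeks old by the labels, while the study's methods give an older range), grown as spheres, passaged and kept on poly-D-lysine coated plates. All received PBS as sham exposure, for 1 h in 2 libraries (replicates 1 and 2) and for 8 h in 3 libraries (replicates 13, 14 and 15). These are the controls of a hydrogen peroxide experiment whose exposed libraries were not analysed here, and no untreated library at 0 h was used, so the comparison is one of time in culture after sham exposure. Neither soluble matrix nor protein was measured, and poly-D-lysine is not itself a ligand of integrins. The study's methods give a medium with fetal bovine serum, EGF and FGFb for plated SVZ cells, so the coating alone does not show that integrin ligands were absent.

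The libraries did not stand alike, which bears on every result below. The identifiers in the labels fall into 2 numbered series. Series 1 holds both 1 h libraries and 8 h replicate 14, and series 2 holds 8 h replicates 13 and 15. All 5 libraries are labelled female, yet the 3 libraries of series 1 held between 138 and 181 TPM (a level corrected for transcript length and scaled to the whole library) summed over 4 Y-linked genes and at most 0.0611 TPM of Xist, whereas the 2 libraries of series 2 held at most 0.0253 TPM of the Y-linked genes and 165 and 200 TPM of Xist. Mitochondrial genes took 10.7 to 11.1% of TPM in series 1 and 6.23 and 6.30% in series 2. No source used here says what the series stands for. Because series 2 holds 8 h libraries only, time and series are partly confounded, and 8 h replicate 14 is the single library through which time can be read within a series.

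The precursor markers Fabp7, Vim, Nes and Sox2 had mean levels of 8582, 2232, 732 and 212 TPM. Markers of the oligodendrocyte lineage were also high, with a sum of 1639 to 2462 TPM over 8 genes, led by Olig1; Mbp, the myelin gene among them, ranged from 27.8 to 38.5 TPM across series 1 and was 7.96 and 10.99 TPM across series 2. The summed level of 6 leukocyte and microglia markers was 0.462 to 1.51 TPM, with Aif1 and Tyrobp listed at 0 in every library. Of 6 endothelial markers, Cdh5 and Cldn5 were listed at 0 in every library and the sum was 11.96 to 15.4 TPM, mostly Flt1. The sum of 8 mural cell and fibroblast markers was 81.4 and 78.2 TPM at 1 h and reached 117 TPM in 8 h replicate 14. In the series 2 libraries it was 15.2 and 19.3 TPM. Acta2 made up nearly all of the sum in series 1. In series 2 Acta2 was 11.2 and 15.8 TPM, with Pdgfrl at 3.32 and 2.685 TPM. Lum was listed at 0. The sum of 6 ependymal and choroid plexus markers was 16.3 to 27.5 TPM, with Ttr and Folr1 at 0. Foxj1, the ciliated cell gene that carried this sum, was lower in every 8 h library, where 9.43% of all genes were. It measured 22.4 and 26.8 TPM in the 1 h libraries against 17.2, 15.5 and 14.4 TPM (log2 difference -0.61, limma, adjusted p = 0.287). For Rsph1 and Ccdc153, from the same list, the groups overlapped and the means were only 0.925 and 0.413 TPM. Foxj1 alone therefore does not show a difference in ciliated cells. Its part in the differences between 8 h and 1 h was not tested. In bulk RNA, fewer cells of a type and less RNA per cell cannot be told apart.

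To show the DNA in front of genes that the results turn on, the 200 bases lying 250 to 51 bases before the start in RefSeq are printed for 4 members. That start is base 141475419 for Col4a5 and base 103366791 for Itga5, which differs from the gene coordinates given further on. Col4a5 and Col4a6 are the most abundant type IV collagen genes and face away from each other across a short stretch of the X chromosome. Itga5 is the integrin gene with the smallest p in the comparison of 8 h with 1 h, and Itgb5 is an abundant integrin gene that differed between the series. Sequences are from RefSeq, build GRCm38.p6, each read 5′ to 3′ on the strand of its gene. None of the printed bases lies in an exon of the GENCODE vM21 annotation. Capitals mark a GC box (GGGCGG on either strand) or a CCAAT box (CCAAT on either strand).
Col4a5 (chrX:141475169-141475368, plus strand): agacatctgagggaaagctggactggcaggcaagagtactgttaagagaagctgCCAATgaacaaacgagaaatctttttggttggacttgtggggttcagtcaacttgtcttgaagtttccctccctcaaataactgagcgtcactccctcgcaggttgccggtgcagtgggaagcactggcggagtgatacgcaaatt
Col4a6 (chrX:141474127-141474326, minus strand): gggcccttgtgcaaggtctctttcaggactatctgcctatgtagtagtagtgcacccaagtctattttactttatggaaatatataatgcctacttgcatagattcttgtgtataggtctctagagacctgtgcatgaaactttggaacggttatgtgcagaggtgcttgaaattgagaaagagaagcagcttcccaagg
Itga5 (chr15:103366842-103367041, minus strand): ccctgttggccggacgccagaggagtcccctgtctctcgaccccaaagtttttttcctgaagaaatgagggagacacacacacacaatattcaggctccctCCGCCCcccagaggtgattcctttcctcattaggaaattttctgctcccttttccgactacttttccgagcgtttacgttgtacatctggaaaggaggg
Itgb5 (chr16:33829415-33829614, plus strand): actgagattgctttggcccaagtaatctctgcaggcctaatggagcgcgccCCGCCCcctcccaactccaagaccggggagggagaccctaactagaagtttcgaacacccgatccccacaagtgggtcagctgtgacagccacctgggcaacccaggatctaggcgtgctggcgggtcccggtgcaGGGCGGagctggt

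The Itgb5 window held 2 GC boxes and the Itga5 window 1, the Col4a5 window held 1 CCAAT box, and the Col4a6 window held neither. Over the same 200 bases, a GC box was present in 24.5% of the 27025 genes in the RefSeq table, in 40% of the 60 members it holds, and in 55.6% of the 27 of these with a mean level of at least 1 TPM. A CCAAT box was present in 28.9%, 23.3% and 33.3% of these groups, and TATAAA on either strand in 9.48%, 6.67% and 3.70%. The median GC content was 51.5%, 57.5% and 59.0%. Neither the motif shares nor the GC content were computed for all genes with a mean of at least 1 TPM. The members at that level therefore have no like set beside them. These are letter matches and say nothing on binding.

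Of the 83 genes, 37 had a mean level of at least 1 TPM and entered the test, 16 of them collagen, 7 laminin and 14 integrin genes. In 35 genes the level was at least 1 TPM in every library, and in 40 it was under 1 TPM in every library. Of the latter, 7 were listed at 0 throughout (Col10a1, Col6a5, Col6a6, Itgad, Itgax, Itgb2l and Itgb6). Integrin transcripts exceeded collagen and laminin transcripts in every library. The 28 integrin genes summed to 1113 and 1092 TPM at 1 h. At 8 h they summed to 1234, 1128 and 1296 TPM (replicates 13, 14 and 15, the order kept throughout). The collagen genes summed to 394 and 384 TPM and then 361, 373 and 356 TPM. The laminin genes summed to 211 and 280 TPM and then 261, 234 and 253 TPM. Lamc1, the highest of them, measured 112 and 172 TPM at 1 h, a gap its reads did not show, as given below. All members together took 0.172 to 0.190% of TPM. The integrin sum was 1.64 times (1 h replicate 2, with the higher Lamc1 value) to 2.13 times the sum of collagens and laminins. These are unlike sets, because fibronectin and vitronectin, named above as ligands of RGD-binding integrins, are not members. The laminin-binding chains without Itgb1 had a mean sum of 239 TPM, beside 248 TPM for the laminins.

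**Figure D1:**
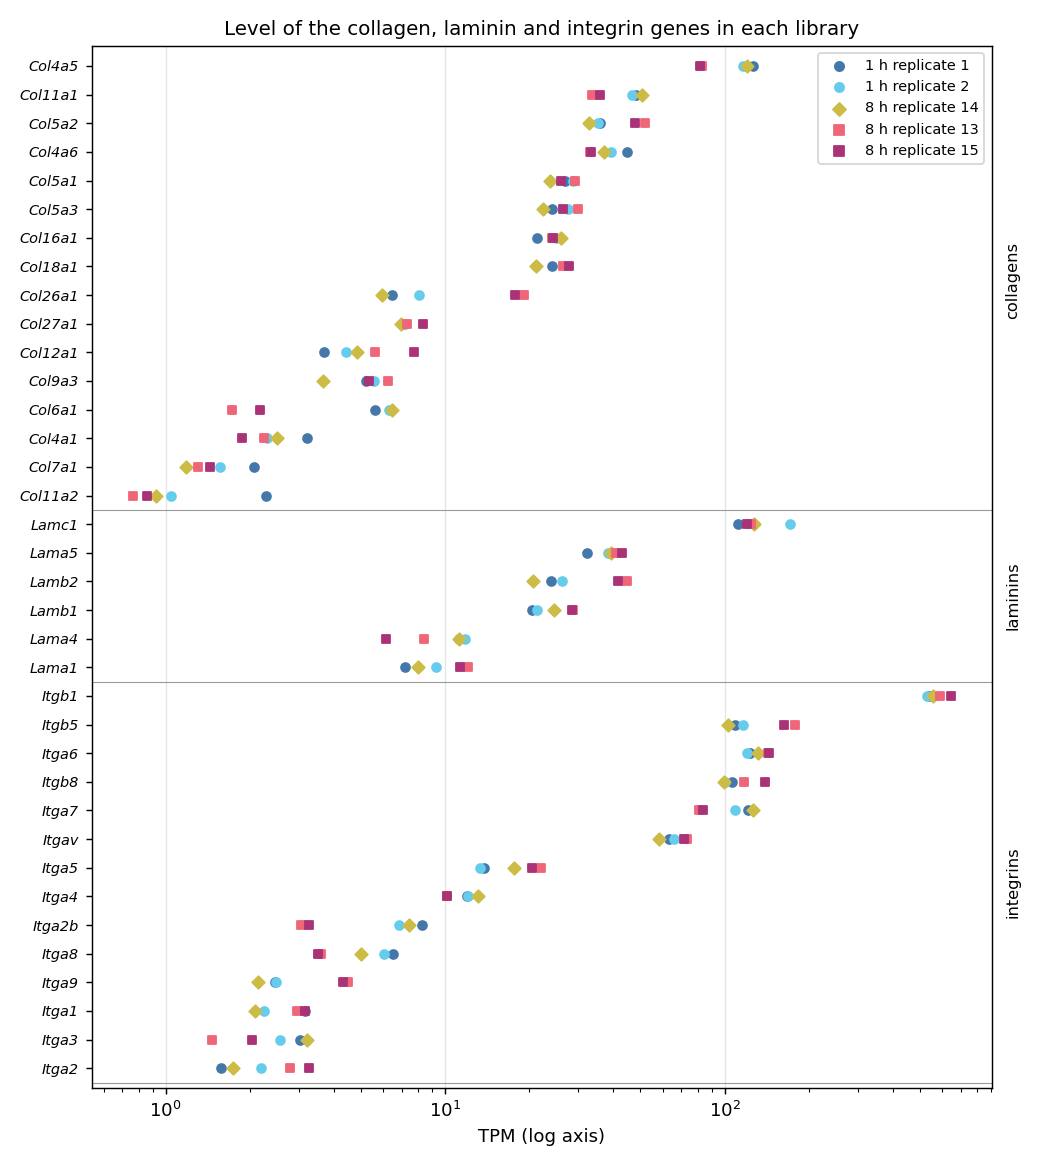
Level of 36 tested members in each library, in TPM on a log axis; rows are genes, grouped by family and ordered by mean level, and each point is 1 library. Itgb1 lies at the far right with 531 to 643 TPM, and for many genes the squares of 8 h replicates 13 and 15 lie apart from the other 3 libraries.

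Among the collagens, the basement membrane network held the highest gene. Col4a5, an alpha chain of type IV collagen (chrX:141475385-141689234, plus strand), measured 126 and 116 TPM at 1 h and 82.8, 120 and 81.4 TPM at 8 h. Its neighbour Col4a6, which encodes the chain that joins it in 1 of the type IV trimers, measured 44.9 and 39.3 TPM and then 32.9, 37.2 and 33.2 TPM. For Col4a5 the 8 h replicate 14 lay inside the 1 h range, whereas all 8 h values of Col4a6 lay below both 1 h values. The chain pair more widespread in basement membranes was low in these cells, with Col4a1 at 3.21 and 2.30 TPM and then 2.25, 2.50 and 1.87 TPM, and Col4a2 under 1 TPM in every library. Col4a3 and Col4a4, the other type IV genes, had at most 0.112 TPM.

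The genes of the 2 pairs lie head to head. There are 1308 bases between Col4a6 and Col4a5, and Col4a5 was 2.81 and 2.96 times Col4a6 at 1 h and 2.52, 3.22 and 2.45 times at 8 h. Col4a1 and Col4a2 share 22 bases at their starts, and Col4a1 was 7.74 and 10.6 times Col4a2 at 1 h and 2.64, 10.5 and 2.26 times at 8 h. In that second ratio both series 2 libraries stood below the other 3, but it is set against a gene at 0.218 to 0.853 TPM, with 24 to 66 reads per column of the count table described further on, so the steadiness of the 2 ratios cannot be compared. Another head-to-head pair, Col4a4 and Col4a3, had 71 bases between the genes and was at or near 0 in every library.

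Fibrillar collagens, the rope-forming class, were represented by type V and type XI chains. Col11a1 measured 48.2 and 46.5 TPM at 1 h and 33.5, 50.6 and 35.8 TPM at 8 h. Col5a2 measured 35.9 and 35.3 TPM and then 51.8, 32.9 and 48.0 TPM. In both genes 8 h replicate 14 lay with the 1 h libraries and the series 2 libraries lay outside, lower for Col11a1 and higher for Col5a2. Col5a1 and Col5a3, the other type V chains, ranged from 23.8 to 29.0 TPM and from 22.3 to 29.8 TPM, and Col27a1 from 6.94 to 8.36 TPM. Col11a2, the second type XI chain, had a mean of only 1.17 TPM. The chains of type I and type III collagen, the main fibrils of connective tissue, were close to absent. Col1a1 had at most 1.04 TPM, Col1a2 at most 0.111 TPM and Col3a1 at most 0.110 TPM. Col3a1 and Col5a2 lie tail to tail, with 24614 bases between the genes.

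The remaining collagens were led by Col16a1, a fibril-associated chain, and Col18a1, the basement membrane collagen whose C-terminal fragment is endostatin, with mean levels of 24.2 and 24.1 TPM. Col26a1, a little-studied collagen-like gene, measured 6.45 and 8.08 TPM at 1 h and 19.2, 5.96 and 17.8 TPM at 8 h. Col12a1, a fibril-associated chain, measured 3.70 and 4.44 TPM and then 5.60, 4.85 and 7.71 TPM. Col26a1 was high in series 2 only, whereas in Col12a1 every 8 h library lay above both 1 h libraries. Col6a1, a chain of the beaded filaments, showed the opposite arrangement to Col26a1, with 5.63 and 6.29 TPM at 1 h and 1.73, 6.44 and 2.18 TPM at 8 h; it was singled out after its values were seen. Its partner Col6a2 was also lowest in series 2, with 0.169 and 0.214 TPM against 0.972 to 1.17 TPM in series 1. The transmembrane collagens (Col13a1, Col17a1, Col23a1 and Col25a1) each had at most 0.675 TPM.

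The laminin genes gave a nearly complete set of chains for the common trimers, with 7 of the 11 genes at a mean of at least 1 TPM. Lamc1, the gamma chain of most laminins, measured 112 and 172 TPM at 1 h and 124, 128 and 121 TPM at 8 h. In TPM the spread between the 1 h libraries exceeded that among the 8 h libraries, which all fell between them. The count table described further on did not show this spread. There the 1 h columns held 8165 and 9950 reads of Lamc1, or 584 and 602 when scaled to the column total (CPM). The 8 h columns held 663, 890 and 595 CPM. The cause of the difference between the readouts was not tested. Lama5, the alpha chain of the most widespread adult laminins, measured 32.3 and 38.2 TPM and then 40.7, 39.2 and 42.9 TPM. Lamb2, the beta chain of synaptic and glomerular laminins, measured 23.8 and 26.2 TPM and then 44.6, 20.6 and 41.6 TPM. Lamb1, the beta chain of most early laminins (chr12:31265234-31329644, plus strand), measured 20.5 and 21.3 TPM and then 28.7, 24.4 and 28.4 TPM. All 8 h libraries lay above both 1 h libraries in Lama5 and Lamb1 but not in Lamb2, whose 8 h replicate 14 was the lowest of all 5. The ratio of Lamb2 to Lamb1 was 1.16 and 1.23 at 1 h and 1.55, 0.843 and 1.47 at 8 h.

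The other alpha chains were lower. Lama4, known from vessel walls, measured 11.2 and 11.7 TPM and then 8.38, 11.2 and 6.15 TPM. Lama1, the chain of early basement membranes, measured 7.20 and 9.27 TPM and then 12.1, 8.01 and 11.3 TPM. In both, 8 h replicate 14 lay near or within the 1 h range and the series 2 libraries lay outside it. Lama2, the chain mutated in merosin-deficient muscular dystrophy, stayed at 0.115 and 0.211 TPM in the 1 h libraries and read 0.959, 0.227 and 1.07 TPM in the 8 h libraries. Lama3 and Lamb3, chains of the epithelial anchoring laminin, had at most 0.194 TPM and 0.166 TPM.

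Integrin transcripts were led by Itgb1, the beta chain shared by many alpha chains and the member with the highest level, at 539 and 531 TPM at 1 h and 589, 555 and 643 TPM at 8 h. It stood 216th of all genes by mean TPM. Itgb1 was 1.53 to 1.86 times the sum of its 12 possible alpha partners among the members in every library. Among these partners the laminin-binding chains were most abundant. Itga6, the alpha chain of the laminin receptor named above, measured 123 and 121 TPM and then 143, 132 and 144 TPM. Itga7, a second laminin-binding chain best known from muscle, measured 121 and 109 TPM and then 81.0, 126 and 83.4 TPM. The pair was near parity in series 1, with Itga6 at 1.012 and 1.10 times Itga7 at 1 h and 1.04 times in 8 h replicate 14, and at 1.76 and 1.73 times in series 2. Itgb4, which pairs with the alpha 6 chain in hemidesmosomes, had at most 0.102 TPM, and Itga3 had a mean of 2.46 TPM.

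The RGD-binding chains summed to 307 and 309 TPM at 1 h and to 399, 291 and 401 TPM at 8 h. Itgb5, a partner of the alpha V chain in vitronectin binding, measured 109 and 116 TPM and then 179, 103 and 163 TPM. Itgb8, the alpha V partner that binds latent TGF-beta, measured 106 and 100.3 TPM and then 117.8, 99.9 and 139 TPM. Itgav itself ranged from 58.5 to 73.3 TPM, and the other alpha V partners, Itgb3 and Itgb6, had at most 0.286 TPM and 0. In Itgb5, Itgb8 and Itgav both series 2 libraries lay above the other 3. Itga5, the fibronectin receptor chain (chr15:103344289-103366763, minus strand), measured 13.8 and 13.3 TPM and then 22.00, 17.7 and 20.4 TPM. Itga8, a chain that binds nephronectin and fibronectin, measured 6.52 and 6.04 TPM and then 3.59, 5.00 and 3.50 TPM. These were the 2 RGD-binding genes in which all 8 h libraries lay on 1 side of both 1 h libraries. Itga2b, the platelet integrin chain, measured 8.27 and 6.86 TPM and then 3.06, 7.44 and 3.25 TPM, although its usual partner Itgb3 was under 1 TPM throughout.

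The collagen-binding integrin chains were low. Itga1 had a mean of 2.72 TPM and Itga2 of 2.31 TPM. Itga10 had at most 0.721 TPM and Itga11 at most 0.0338 TPM. Itga4 and Itga9, related chains that bind fibronectin splice forms or tenascin, had means of 11.5 and 3.17 TPM. Itga9 was higher in series 2 (4.49 and 4.31 TPM) than in series 1 (2.13 to 2.48 TPM). The 7 leukocyte integrin genes had at most 0.169 TPM each and summed to 0.0519 to 0.266 TPM per library, beside the leukocyte markers given above.

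The comparison of 8 h with 1 h was made on log2(TPM + 1), a scale that understates the change of low genes, with limma over all 13870 genes with a mean of at least 1 TPM. A gene was called where its Benjamini-Hochberg adjusted p did not exceed 0.05 and its log2 difference exceeded 1 in absolute size. No member passed, 0 of 37, where 0.0433% of all genes passed (6 genes). At an unadjusted p under 0.05 there were 3 members, where 12.3% of all genes were below that p. Of these, 2 members were higher at 8 h (9.52% of all genes) and 1 was lower (2.82% of all genes). Counting the genes whose groups do not overlap, 6 members were higher in all 8 h libraries (Itgb1, Itga6, Itga5, Lama5, Lamb1 and Col12a1), where 23.7% of all genes were, and 5 were lower (Col4a6, Col7a1, Col11a2, Lama4 and Itga8), where 9.43% were. Together the 11 of 37 stand beside 33.1% of all genes. The median log2 difference of the members was 0.012 and that of all genes 0.10. By family the medians were -0.090 for collagens, 0.21 for laminins and 0.11 for integrins.

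The 3 members below an unadjusted p of 0.05 each missed the adjusted threshold. Itga5 had a log2 difference of 0.53 ± 0.14 (SE, 2 libraries against 3; limma, adjusted p = 0.309). Lamb1 had a log2 difference of 0.36 ± 0.12 (limma, adjusted p = 0.369). Itga8 had -0.54 ± 0.19 (limma, adjusted p = 0.374), and it shares 372 exon bases with an antisense gene measured at 0.0595 TPM. The most abundant members gave smaller differences: 0.15 ± 0.10 for Itgb1, 0.20 ± 0.09 for Itga6 and -0.38 ± 0.19 for Col4a5. None of these differences is separated from the spread between libraries after adjustment.

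**Figure D2:**
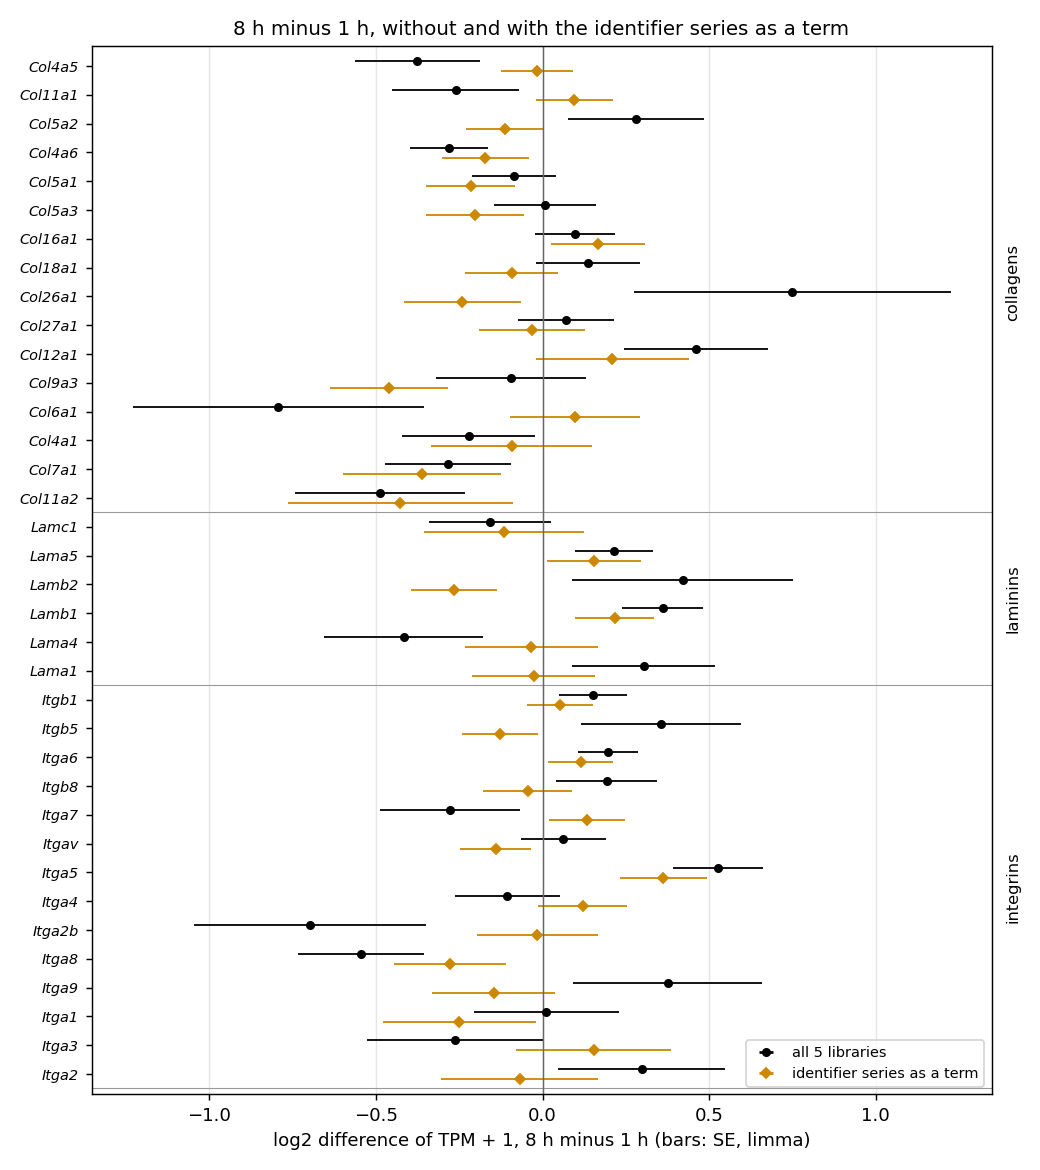
Difference of log2(TPM + 1), 8 h minus 1 h, for 36 tested members from limma; black circles use all 5 libraries, orange diamonds have the identifier series as a term, and bars are the SE. Itga5 is at 0.53 and 0.36 by the 2 fits, while Col26a1 and Lamb2 change side.

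With the identifier series as a term, the log2 difference rests on 8 h replicate 14 against the 1 h libraries. No member was called, where 0.137% of all genes were (19 genes), and 2 members had an unadjusted p under 0.05, where 9.06% of all genes did. One was Itga5 at 0.36 (limma, adjusted p = 0.501), with a positive difference in both fits. The other was Col9a3, a fibril-associated chain, at -0.46 (limma, adjusted p = 0.521). The difference of Lamb1 became 0.22 and that of Itga8 -0.28, both with an unadjusted p above 0.05. The difference changed sign in 18 of the 37 members (7 collagens, 2 laminins and 9 integrins), among them Col26a1, from 0.75 to -0.24, Col6a1, from -0.79 to 0.10, Lamb2, from 0.42 to -0.27, and Itgb5, from 0.35 to -0.13.

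Within 8 h, the 2 series 2 libraries were set beside replicate 14. This comparison has a single library on 1 side, so no test is given, and series, sex pattern and mitochondrial share cannot be told apart in it. The mean log2 difference passed 1 in absolute size in 5 of 37 members, where 5.27% of all genes did. Col26a1 was higher in series 2 by 1.49 and Lamb2 by 1.03, where 4.14% of all genes were higher by more than 1. Col6a1 was lower with -1.34 and Itga2b with -1.02, where 1.13% of all genes were lower by more than 1. Acta2, the marker that carried the mural cell sum above, fell on the same side with a difference of -3.01. Pdgfrl, the only other tested marker of that list, went the other way with 0.42. The remaining markers of the list were under 1 TPM in every library, so the list as a whole does not follow Acta2. The part of Acta2 in these values was not tested. Both series 2 libraries lay outside the range of the other 3 in 30 of 37 members, above it in 17 and below it in 13, where 53.3% of all genes lay outside, 39.8% above and 13.5% below.

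**Figure D3:**
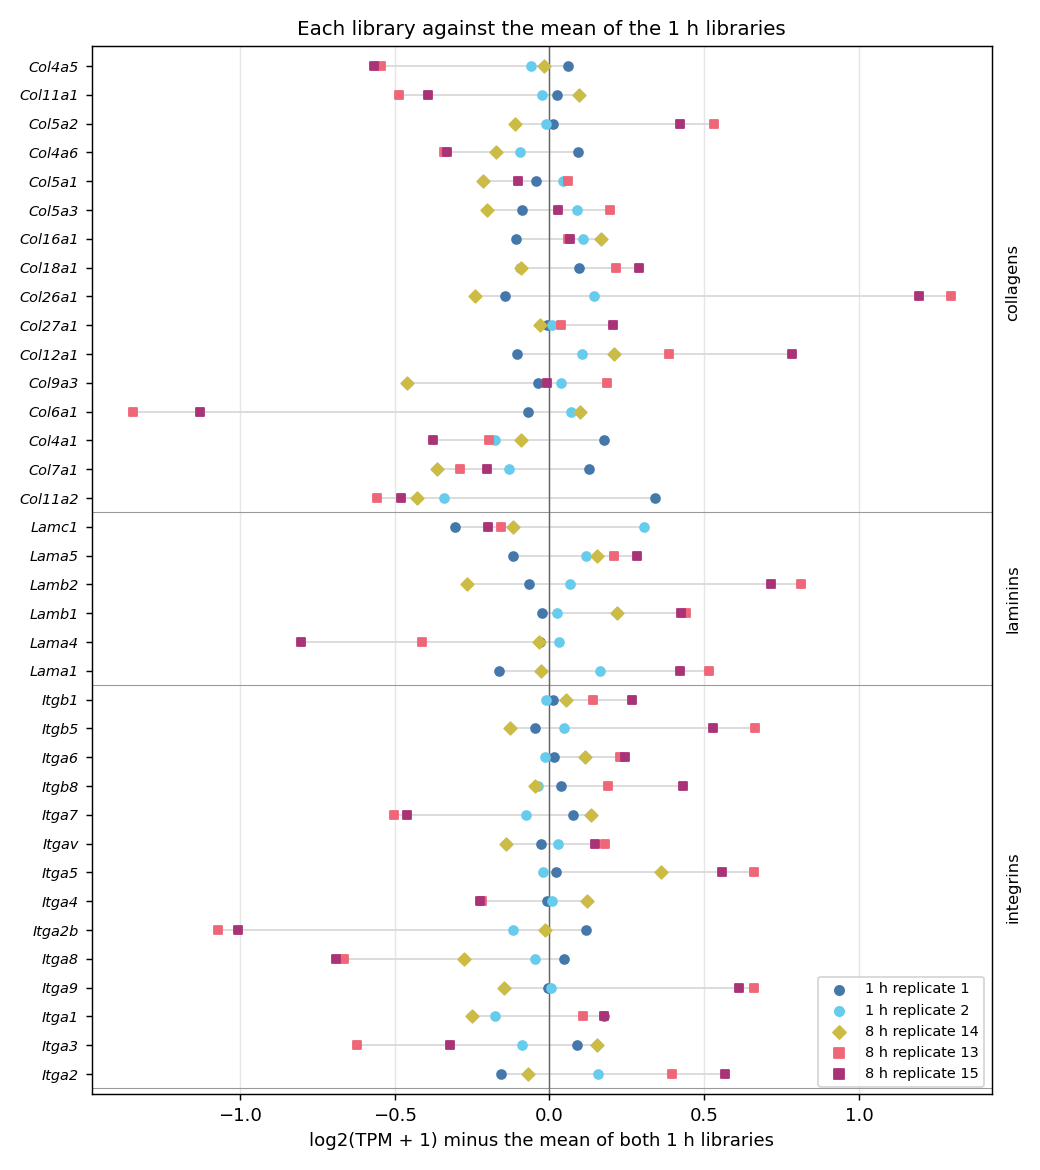
Each library's log2(TPM + 1) minus the mean of both 1 h libraries, for 36 tested members, with circles for 1 h, diamonds for 8 h replicate 14 (series 1) and squares for 8 h replicates 13 and 15 (series 2). The squares lie outside the other 3 points in 29 of these 36 genes, and in Itga5 the diamond also lies to the right of both circles.

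**Figure D4:**
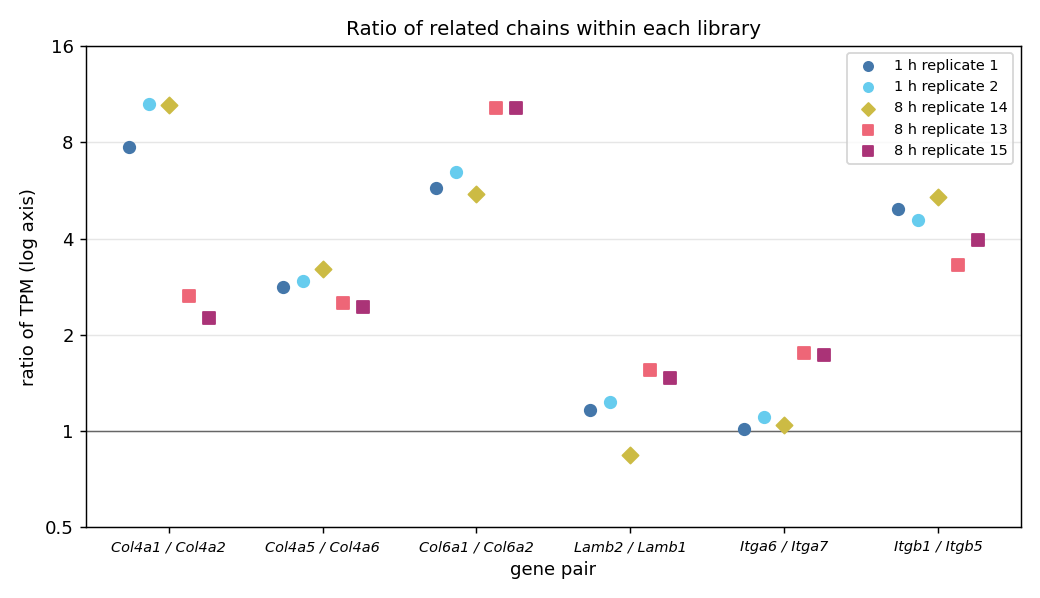
Ratio of TPM between related chains within each library, on a log axis, with 1 point per library. Col4a1 over Col4a2 falls to 2.64 and 2.26 in 8 h replicates 13 and 15 from 7.74 or more in the other libraries, and Col6a1 over Col6a2 stands at 10.3 and 10.2 there; Col4a2 and Col6a2 were low, at no more than 1.17 TPM.

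Without 8 h replicate 14, so that all 8 h libraries were of series 2, 4 members were called, where 4.1% of all genes were (568 genes). Among these were Col26a1 with a log2 difference of 1.24 (limma, adjusted p = 0.00571), Itga2b with -1.04 (adjusted p = 0.0108) and Col6a1 with -1.24 (adjusted p = 0.00851). The call of each rests on leaving out this 1 library, in which the named genes lay within or near the 1 h range.

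A count table covering 7599 genes gave a second readout, with column totals of 13988166 to 18572154 reads. It held 37 members, 36 of which passed the filter on low counts. Its columns did not follow the expression tables in every case. The log2 difference of each column from 1 h replicate 1 was set beside the same difference in the tables, with the median offset removed. A gene matched where both lay within 0.1. For the difference between 1 h replicates 1 and 2, a single comparison, 77.2% of the compared genes matched under their own names. For the columns named 8 h replicate 13, 14 and 15 it was 25.0, 25.0 and 39.8%. These values take the column of 1 h replicate 1 to be rightly named. The column of replicate 13 matched the table of replicate 14 best (77.3%) and that of replicate 15 the table of replicate 13 (76.0%), while the column of replicate 14 matched no table well, the best being 1 h replicate 2 (36.4%). Columns were kept under their own names. In the edgeR quasi-likelihood test 0 of 36 members were called, where 0% of all 7590 genes were, and 2 members had an unadjusted p under 0.05, where 2.62% of all genes did.

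Those 2 members were again Itga5 and Lamb1. Itga5 had 604 and 706 reads in the 1 h columns and 1003, 756 and 1172 reads in the 8 h columns, or 43.2 and 42.7 CPM (reads scaled to the column total) and then 55.6, 52.2 and 63.1. Its log2 fold change was 0.38 (edgeR, adjusted p = 0.966). Lamb1 had 83.6 and 88.2 CPM and then 100.9, 128 and 110, with a log2 fold change of 0.37 (edgeR, adjusted p = 0.966). In both genes every 8 h column lay above both 1 h columns. Both were picked by their p in these same counts, and the share of all counted genes with this arrangement was not computed. For Itga8 the log2 fold change was -0.43 (edgeR, adjusted p = 0.966). For Itgb1 and Itga6 it was -0.06 and -0.21, the other side from the TPM difference. Where a column matches a table, reads and TPM are not independent readouts.

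Genes that work beside the members were taken from lists of related function, and none of their genes was called. Among 21 collagen and laminin assembly enzymes, of which 17 were tested, 4 had an unadjusted p under 0.05, all higher at 8 h, and in 7 every 8 h library lay above both 1 h libraries, where 9.52% and 23.7% of all genes did so. P4ha1, the catalytic chain of collagen prolyl 4-hydroxylase, measured 37.2 and 36.6 TPM at 1 h and 54.4, 47.0 and 50.5 TPM at 8 h, a log2 difference of 0.44 (limma, adjusted p = 0.296). The others were P4ha2, an alternative catalytic chain, P3h1, a prolyl 3-hydroxylase, and Colgalt1, a collagen galactosyltransferase; these 4 genes are named because they were below that p. The list's median log2 difference was 0.30 beside 0.10 for all genes, and within 8 h its median difference between series 2 and replicate 14 was 0.40 beside 0.11 for all genes. The most abundant of the list, Ppib and P4hb, had mean levels of 600.4 and 450.0 TPM.

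Among 18 genes of the integrin adhesion machinery, 16 were tested. Lims1, a partner of integrin-linked kinase, was the 1 gene higher at 8 h with an unadjusted p under 0.05, and Bcar1, a focal adhesion scaffold, the 1 lower, where 9.52% of all genes were higher and 2.82% lower. Ilk and Fermt2, a kindlin that activates integrins, were the most abundant with 251 and 241 TPM. Of 14 matrix proteases and inhibitors 12 were tested, and Adam9, higher at 8 h, was the 1 gene below that p. Mmp15 and Mmp14, membrane-bound metalloproteinases, had 240.1 and 145 TPM. No gene of the 8 tested basement membrane partners or of the 9 other collagen and laminin receptors was below it. Sparc and Agrn led the former with 527 and 93.7 TPM, and the collagen receptor Ddr1 and the laminin receptor Dag1 the latter with 307 and 212 TPM.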

How the data were processed

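RNA was poly-A selected, prepared with a stranded kit and sequenced on Illumina instruments; per the labels the reads were converted with bcl2fastq 2.19.1.403 and the build was GRCm38. The authors deposited 1 table per library with TPM for each of 46078 genes, and 1 table of read counts for 7599 genes, whose selection no source used here explains and which held 51.3 to 56.7% of TPM. The FPKM and coverage columns that the authors deposited beside TPM served only to compare depth (coverage per FPKM 4.00 to 5.21). TPM rows sharing a gene identifier were summed. limma 3.58.1 (R 4.3.3) was fitted with an intensity trend to log2(TPM + 1) of genes with a mean of at least 1 TPM, and edgeR 4.0.16 (TMM, filterByExpr) to the deposited counts, each with Benjamini-Hochberg adjustment over all genes tested; both were tested on simulated data. Alternatives were DESeq2 1.42.0, limma-voom, other filters, scalings and pseudocounts, the identifier series as a term, and leaving out each library.

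The study's methods count an animal as the replicate of SVZ cells, but the labels tie no library to an animal, so p-values measure the spread between these libraries. Members, lists and rules were chosen with earlier results of these data known. Values in every library were given for the 4 members of each family with the highest mean TPM, up to 6 per direction with the smallest p, and up to 4 per direction differing most between series among members of at least 5 TPM, plus the 2 most abundant genes of each related list. Outside these rules, such values were also given for the members Col4a1, Col6a1, Lama1 and Lama2. Of the members, 71 had the coordinates of GENCODE vM21. Gene coordinates are those of the deposited tables, and those of the printed sequences follow RefSeq. Of the tested members, 1, kept in all counts and sums, is not reported here by name.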

Additional observations from a re-analysis of the deposited data

How the results depend on the processing

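No paired analysis was possible because the 1 h and 8 h groups share no replicate number. With TPM, the count of members called was 0 under every alternative that kept all libraries or series 1 alone, and 0 to 4 when leaving out each library, the 4 arising without 8 h replicate 14. Over all genes the count was 6, against 0 with no filter on low values, 1 with a mean TPM of at least 5, 19 with the series as a term, and 0 to 568 when leaving out each library. The members' median log2 difference of 0.012 became 0.097 with a mean TPM of at least 5, -0.074 with median-ratio scaling, which shifted the median of all genes from 0.10 to -0.0045, and -0.069 with the series as a term or series 1 only. It ranged from -0.037 to 0.11 when leaving out each library.

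With the series as a term or series 1 only, the TPM difference changed sign in 18 of the 37 tested members; those with values for every library by rule were Col11a1 (0.096), Col5a2 (-0.11), Itgb5 (-0.13), Itgb8 (-0.045), Lamb2 (-0.27), Col26a1 (-0.24) and Itga7 (0.13); that of Lamc1 ranged from -0.46 to 0.15 when leaving out each library, reversed without 1 h replicate 2. The cause was not tested. In the counts, 0 genes were called under every setting, with 199 genes at an unadjusted p under 0.05 by edgeR, 227 by DESeq2 and 178 by limma-voom. The count columns of 8 h replicates 13 and 14 do not match the tables of their names, so the series term may group them wrongly; with it Col4a6 (0.25), Itgb5 (-0.23), Col12a1 (-0.37) and Col11a2 (0.57) reversed. Leaving out each column, the count differences ranged from -0.046 to 0.23 for Col5a2, -0.37 to 0.037 for Col4a6, -0.22 to 0.21 for Itgb5, -0.22 to 0.037 for Lama5, -0.066 to 0.24 for Col12a1 and -0.58 to 0.15 for Col11a2.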
